A study of Mus musculus with 12 samples.

Results

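The genes described are those that mark the islet cells other than beta cells: Gcg, Ttr, Irx1 and Irx2 of alpha cells, Sst and Hhex of delta cells, Ppy and Pyy of PP cells, and Ghrl of epsilon cells. They were taken by exact gene name from the table of islet expression, in which 9 of 24078 entries matched. The study sequenced islet RNA from male F2 hybrid mice from a cross of C57BL/6 with another inbred strain at 5 to 6 months of age, with a library from each of 4 wild-type (WT) animals, 4 heterozygotes (Wfs1HZ) and 4 homozygotes (Wfs1KO) for the Wfs1 mutation Wfs1tm1Koks. In this allele most of exon 8 of Wfs1, the gene of the endoplasmic reticulum protein wolframin, is replaced by a LacZ cassette, so that a fusion of the amino-terminal part with LacZ can still be made. The allele is not limited to a cell type, so all islet cell types of Wfs1HZ and Wfs1KO animals carry it. Islets of all 3 genotypes were picked by hand and kept overnight in a high-glucose medium before RNA was isolated, and a library therefore holds islet cells of every type and any exocrine tissue that came along. No other treatment or transgene was given in the labels.

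An islet is a mixture of endocrine cells that each make a main hormone. Beta cells make insulin, alpha cells cut proglucagon (Gcg) to glucagon, which makes the liver release glucose, delta cells make somatostatin (Sst), which restrains the release of insulin and glucagon from its neighbours, PP cells make pancreatic polypeptide (Ppy), and the rare epsilon cells make ghrelin (Ghrl). Peptide YY (Pyy) is a relative of pancreatic polypeptide that is also found in PP cells and in some alpha and delta cells. Transthyretin (Ttr) is a thyroid hormone and retinol carrier abundant in alpha cells, Irx1 and Irx2 are homeobox transcription factors of alpha cells, and Hhex is the homeobox factor that keeps delta cells in their identity. In mouse islets beta cells are the most numerous and the other types are a minority.

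Positions are from GENCODE M21 (build GRCm38). Gcg lies on chromosome 2 from 62474530 to 62483650, Sst on chromosome 16 from 23889573 to 23890958, Hhex on chromosome 19 from 37434810 to 37440731 and Ghrl on chromosome 6 from 113716119 to 113719880. Irx1 and Irx2 are 665096 bases apart on chromosome 13, from 71957921 to 71963723 and from 72628820 to 72634198. Ppy (chromosome 11, 102099930 to 102101319) and Pyy (chromosome 11, 102106676 to 102107832) are neighbours with 5356 bases between them. Their transcripts share no identical run longer than 10 bases, which is shorter than either read of a pair (75 and 35 bp). Reads of Ppy and Pyy can thus be told apart by sequence, although the way multiply mapped reads were treated is not given in the sources used here.

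Bases before the RefSeq start of the 4 abundant hormone genes are shown because the comparisons of hormone levels and ratios turn on these genes. RefSeq windows were held for 7 of the 9 members. The sequences run 5′ to 3′ on the minus strand of GRCm38.p6, with 120 bases up to the RefSeq start for Gcg (chr2:62483654-62483773), Ppy (chr11:102101320-102101439) and Pyy (chr11:102107833-102107952), and for Sst 30 bases around its cAMP response element (chr16:23890874-23890903). Capitals mark TATAAA, on either strand, and TGACGTCA, which reads the same on both strands and is the binding sequence of CREB family factors.
Gcg: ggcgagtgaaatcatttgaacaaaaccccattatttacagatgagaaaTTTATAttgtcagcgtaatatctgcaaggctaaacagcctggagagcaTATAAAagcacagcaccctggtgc
Sst: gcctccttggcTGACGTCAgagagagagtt
Ppy: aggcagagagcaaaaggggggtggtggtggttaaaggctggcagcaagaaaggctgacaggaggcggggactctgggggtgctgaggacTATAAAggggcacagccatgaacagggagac
Pyy: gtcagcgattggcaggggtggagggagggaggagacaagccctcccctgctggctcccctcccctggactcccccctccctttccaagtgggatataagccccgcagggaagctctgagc
TATAAA was found on the forward strand from 24 to 19 bases before the start of Gcg and from 31 to 26 bases before that of Ppy, and once more on the other strand of Gcg from 72 to 67 bases before the start. TGACGTCA lies from 48 to 41 bases before the RefSeq start of Sst. GENCODE M21 starts Sst 114 bases further upstream, so that by its annotation these 30 bases are inside the gene. The window of Pyy held neither. Of all 32851 promoter windows of this length, 6.34% held TATAAA and 1.24% held TGACGTCA.

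Expression was deposited as RPKM, in which read numbers are divided by transcript length and by the depth of the library, so that levels of different genes can be set beside each other. The reads behind the values, estimated from the steps between values of short RNA genes, numbered 2182000 to 9555000 per library. The paper reports a higher number of reads per sample, so these estimates are not the number of reads sequenced. By this estimate the most shallow library was Wfs1HZ replicate 2, where a 2 kb transcript with 3 reads stands at 0.687 RPKM. Yet it had the most entries above 0 (20954) and the highest median RPKM (3.37, against 0.75 to 1.73 in the others). This library also had the lowest median Spearman correlation with the other libraries (0.860). Wfs1 itself was at 28.6 ± 3.83 RPKM in WT islets, 11.1 ± 5.59 in Wfs1HZ and 4.40 ± 1.83 in Wfs1KO (SD, n = 4 animals each), and no Wfs1KO animal overlapped a WT animal. The lowest Wfs1HZ animal (4.69 RPKM) lay below the highest Wfs1KO animal (6.61 RPKM; exact two-sided permutation p = 0.0857 between these genotypes). The value covers the exons that the allele keeps as well as the replaced one. Markers of exocrine acinar cells differed widely between libraries. The summed level of 10 acinar genes was 53347 to 120240 RPKM in WT, 9017 to 305254 in Wfs1HZ and 8425 to 276587 in Wfs1KO, with the lowest values in Wfs1HZ replicate 2 and Wfs1KO replicate 4 and none of these genes at 0.

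The 4 hormone genes were among the most abundant entries of the table and the transcription factors among the ordinary ones. By mean RPKM over the 12 animals Gcg ranked 1 of 24078, Ppy 6, Pyy 9, Sst 13 and Ttr 23, whereas Ghrl ranked 1895, Hhex 5105, Irx2 6746 and Irx1 8940. Mean levels descended in the order Gcg (101385 RPKM), Ppy (7647), Pyy (4229), Sst (3389), Ttr (1681), Ghrl (26.9), Hhex (10.4), Irx2 (6.84) and Irx1 (3.89). In this order Gcg was above Ppy in 12 of 12 animals, by 14.3-fold as a geometric mean (exact two-sided permutation test within animals, p = 0.000488, the smallest it can give, adjusted p = 0.0013 over 8 neighbouring pairs). Ppy was above Pyy in 10 of 12 animals (1.61-fold, adjusted p = 0.00456 from the same exact permutation test), and Sst was above Ttr in 10 of 12 (2.22-fold, adjusted p = 0.00313). Pyy and Sst, with 8 of 12 animals in the order of their means, did not differ beyond their spread (1.23-fold, adjusted p = 0.149), and neither did Hhex and Irx2 (9 of 12 animals, 1.36-fold, adjusted p = 0.0932). Ghrl was above Hhex in 12 of 12 animals and Irx2 above Irx1 in 11 of 12. The order was set by the means of these same animals, so these p are no independent test of it. They measure the spread between animals, not errors of RPKM between genes.

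**Figure D1:**
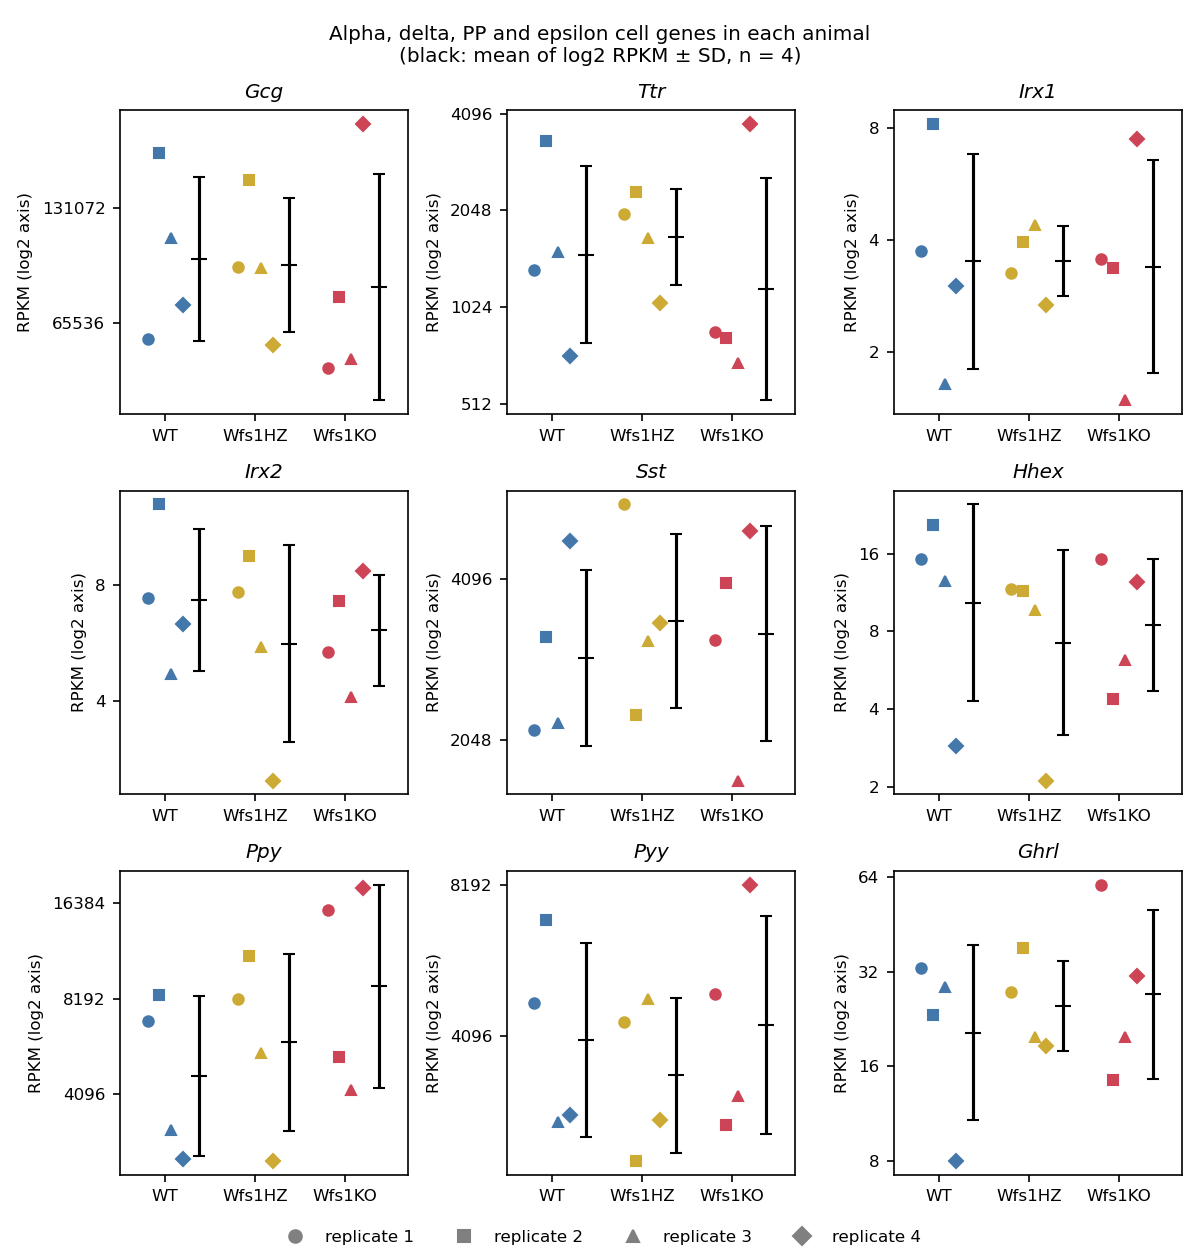
RPKM of the 9 genes in each animal on log2 axes, by genotype, with the marker shape giving the replicate number and the black bar the mean of log2 RPKM ± SD (n = 4). The genotypes overlap in every panel, and Wfs1KO replicate 4 has the highest Gcg (217165 RPKM), Ttr, Ppy and Pyy of all animals.

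Glucagon transcripts varied several-fold among animals of 1 genotype and did not separate the genotypes. Gcg was at 59439.7, 182240.4, 109573 and 73228 RPKM in WT islets, replicates 1 to 4. Its values were 91609, 155286, 91180.1 and 57527 RPKM in Wfs1HZ and 50073, 76653, 52639.9 and 217165 RPKM in Wfs1KO. WT replicate 2, Wfs1HZ replicate 2 and Wfs1KO replicate 4 were each the highest of their genotype, above every other animal of the series. The mean was 106120.0 ± 54976 RPKM in WT, 98900.5 ± 40841 in Wfs1HZ and 99133 ± 79594 in Wfs1KO (SD, n = 4). On the scale of log2(RPKM + 0.1) Wfs1KO differed from WT by -0.25 (standard error from the samples 0.61, exact two-sided permutation p = 0.714), Wfs1KO from Wfs1HZ by -0.19 (0.57, p = 0.771) and Wfs1HZ from WT by -0.06 (0.46, p = 0.971). Without Wfs1KO replicate 4 the difference from WT was -0.72, and without WT replicate 2 it was 0.06. In RNA from whole islets, fewer cells of a type and less RNA per cell cannot be told apart.

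With the longest coding transcript of GENCODE M21 as its length, Gcg alone took an estimated 5.45% to 23.6% of the counted reads of a library. This is about 313571 to 1770620 reads. The same calculation over all entries with a matched length gave 102.3% to 105.6% of a library, more than the whole. Such shares and read numbers are therefore approximate. It was the highest entry of the table in 7 of 12 animals, Ins2 in WT replicate 1, and the protease gene Ctrb1 of acinar cells in the other 4. Set against insulin, the ratio of Gcg to the sum of Ins1 and Ins2 in RPKM ran from 0.435 in WT replicate 4 to 13.6 in Wfs1HZ replicate 2, and it was above 1 in 7 of 12 animals. Whether Ins1 and Ins2 share reads was not examined, and the treatment of multiply mapped reads is not given. The level of insulin, and with it this ratio and the hormone shares, may depend on that treatment. Gcg held 27.8% to 84.6% of the summed RPKM of 8 islet hormones, and the insulin genes together 6.21% to 64.0%. These shares are description, with no test between genotypes. By genotype Gcg held 49.8 ± 25.8% in WT, 52.9 ± 24.8% in Wfs1HZ and 52.6 ± 20.7% in Wfs1KO (SD, n = 4). The 3 animals with the highest Gcg also had the lowest summed level of the 10 beta cell genes of the list (32086, 12565 and 22394 RPKM, against 38110 to 179874 RPKM in the other animals). Ins1, Ins2 and Iapp make up most of this sum. By the mean log2 level of the list, Wfs1KO replicate 3 (5.84) lay below WT replicate 2 (5.93) and Wfs1KO replicate 4 (5.99). The beta cell gene Pdx1 was highest of all animals in Wfs1KO replicate 4 (21.3 RPKM). The summed acinar genes were lowest in the 3 animals with the highest Gcg. The part of beta cell and acinar RNA in the differences of Gcg between animals was not tested beyond these values.

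**Figure D2:**
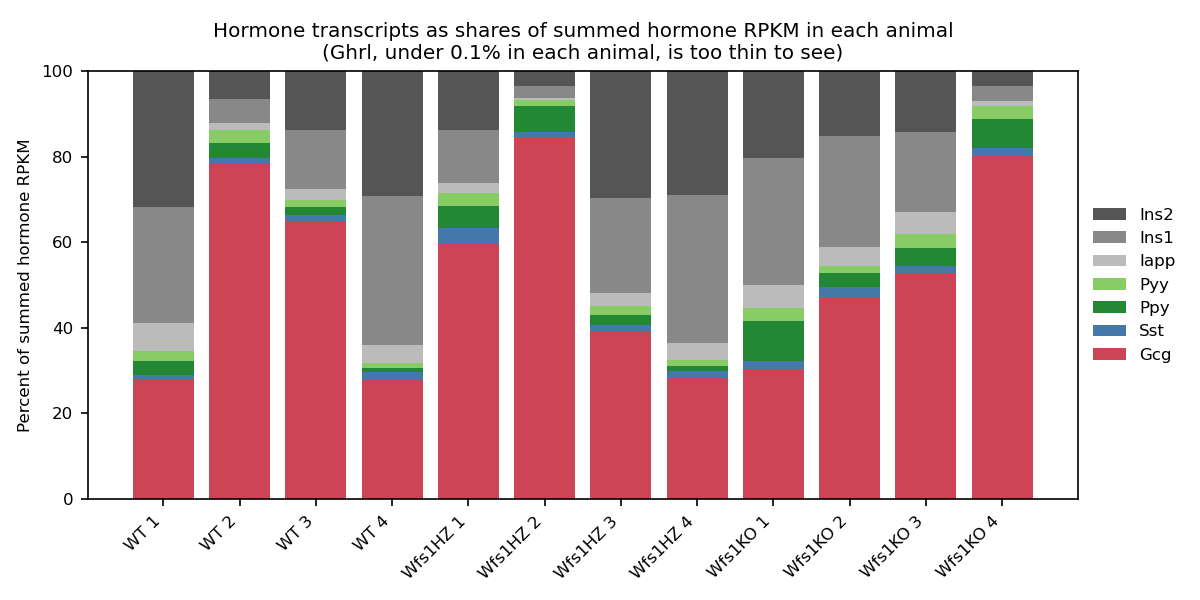
Percent of the summed RPKM of Ins1, Ins2, Iapp, Gcg, Sst, Ppy, Pyy and Ghrl held by each hormone in each of the 12 animals. Gcg takes 27.8% to 84.6%, and its largest shares are in WT replicate 2, Wfs1HZ replicate 2 and Wfs1KO replicate 4, 1 animal of each genotype.

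The other alpha cell members followed Gcg to different degrees. Ttr was at 1338, 3369, 1516 and 724 RPKM in WT, at 1988, 2333, 1683 and 1054 in Wfs1HZ, and at 859, 823, 684 and 3798 in Wfs1KO. Of the Wfs1KO animals 3 lay below every Wfs1HZ animal and the fourth above all of them. The log2 difference between Wfs1KO and WT was -0.36 (standard error 0.73, exact permutation p = 0.629) and that between Wfs1KO and Wfs1HZ -0.54 (0.62, p = 0.4). Without Wfs1KO replicate 4 these became -0.93 and -1.11, still with adjusted p from limma far above the threshold in every alternative tried (lowest over all members 0.568).

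Irx1 and Irx2 were low, as is usual for transcription factors. Irx1 was at 3.73, 8.18, 1.65 and 3.01 RPKM in WT, at 3.27, 3.95, 4.38 and 2.68 in Wfs1HZ, and at 3.56, 3.37, 1.49 and 7.46 in Wfs1KO, about 11.3 to 173 reads per library. Irx2 was at 7.40, 13.0, 4.70 and 6.36 RPKM in WT, at 7.68, 9.54, 5.53 and 2.49 in Wfs1HZ, and at 5.38, 7.27, 4.10 and 8.69 in Wfs1KO. The highest WT and the highest Wfs1KO animal were the same as for Gcg in both genes. Wfs1KO differed from WT by -0.04 for Irx1 (standard error 0.65, exact permutation p = 0.886) and by -0.26 for Irx2 (0.38, p = 0.543). The other Iroquois genes of the islet table, Irx3, Irx4, Irx5 and Irx6, had mean levels between 0.080 and 0.179 RPKM and were listed at 0 in 3 to 5 animals each. Of these 4, 3 entered the tests and none had an unadjusted p under 0.05. Irx6 was the only one whose animals did not overlap in a comparison, at 0.16, 1.14, 0.06 and 0.08 RPKM in Wfs1HZ against 0 to 0.05 RPKM in WT, where 1.66% of all entries tested did not overlap. The highest of these values is from Wfs1HZ replicate 2, the library with the lowest estimated depth and the highest median RPKM.

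Somatostatin was the steadiest of the 9 genes. Sst was at 2134, 3182, 2199 and 4814 RPKM in WT, at 5645, 2272, 3131 and 3385 in Wfs1HZ, and at 3139, 4018, 1716 and 5030.2 in Wfs1KO. Its range over the 12 animals was 3.29-fold, against 4.34-fold for Gcg, and the animals with the most Sst (Wfs1HZ replicate 1, Wfs1KO replicate 4 and WT replicate 4) were in part others than those with the most Gcg. Means were 3082 ± 1250.3 RPKM in WT, 3608 ± 1439 in Wfs1HZ and 3476 ± 1405 in Wfs1KO (SD, n = 4). Wfs1KO differed from WT by 0.15 on the log2 scale (standard error 0.43, exact permutation p = 0.743), Wfs1KO from Wfs1HZ by -0.08 (0.43, p = 0.857) and Wfs1HZ from WT by 0.23 (0.39, p = 0.457).

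Hhex, the factor of delta cells, varied more than any other member. Its levels were 15.3, 20.7, 12.5 and 2.89 RPKM in WT, 11.6, 11.5, 9.68 and 2.12 in Wfs1HZ, and 15.3, 4.38, 6.19 and 12.4 in Wfs1KO. WT replicate 4 and Wfs1HZ replicate 4 stood low, and WT replicate 4 was at the same time the WT animal with the most Sst. The SD over the 12 animals was 1.01 on the log2 scale for Hhex and 0.54 for Sst. Wfs1KO differed from WT by -0.29 (standard error 0.75, exact permutation p = 0.743), Wfs1KO from Wfs1HZ by 0.22 (0.71, p = 0.743) and Wfs1HZ from WT by -0.51 (0.85, p = 0.457). The libraries with the lowest Hhex had the 2 lowest median RPKM of the series, 0.99 and 0.75, and acinar genes summed to 113039 and 305254 RPKM in them. WT replicate 3 and Wfs1KO replicate 3 had acinar sums of 120240 and 276587 RPKM with Hhex at 12.5 and 6.19. The low libraries also had the lowest sums of endothelial (24.5 and 22.4 RPKM) and stromal genes (21.4 and 14.1 RPKM). WT replicate 1 came next in both (26.3 and 23.7 RPKM), with Hhex at 15.3. The part of these in the level of Hhex was not tested.

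Pancreatic polypeptide had the largest log2 difference of the 9 genes between Wfs1KO and WT, with overlapping animals. Ppy was at 6979, 8388, 3167 and 2557 RPKM in WT, at 8188, 11123, 5518 and 2525 in Wfs1HZ, and at 15527, 5351, 4231 and 18204 in Wfs1KO. Replicates 1 and 4 of Wfs1KO were above all WT and Wfs1HZ animals, while replicates 2 and 3 lay within the WT range. The means were 5273 ± 2853 RPKM in WT, 6839 ± 3676 in Wfs1HZ and 10828 ± 7071 in Wfs1KO (SD, n = 4). On the log2 scale Wfs1KO was 0.94 above WT (standard error from the samples 0.68, exact two-sided permutation p = 0.2, adjusted p = 0.936 from limma with Benjamini-Hochberg adjustment). The difference was 0.58 between Wfs1KO and Wfs1HZ (0.70, exact permutation p = 0.457) and 0.36 between Wfs1HZ and WT (0.63, p = 0.629), neither of them larger than the spread between animals. With single animals left out the difference between Wfs1KO and WT was 0.60, without Wfs1KO replicate 4, to 1.30, without Wfs1KO replicate 3.

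Pyy, the neighbour of Ppy, was flatter across the genotypes. It was at 4768, 6972, 2769 and 2859 RPKM in WT, at 4366, 2318, 4867 and 2797 in Wfs1HZ, and at 4975, 2733, 3118 and 8201 in Wfs1KO. Only Wfs1KO replicate 4 lay above the highest WT animal. The log2 difference between Wfs1KO and WT was 0.10 (standard error 0.48, exact permutation p = 0.771), that between Wfs1KO and Wfs1HZ 0.33 (0.44, p = 0.457) and that between Wfs1HZ and WT -0.23 (0.41, p = 0.571). Ghrl, the defining gene of epsilon cells, was detected in all 12 animals, by about 45.6 to 515 reads. Ghrl was at 32.9, 23.3, 28.6 and 8.01 RPKM in WT, at 27.6, 38.03, 19.9 and 18.5 in Wfs1HZ, and at 60.6, 14.5, 19.8 and 31.1 in Wfs1KO. Wfs1KO replicate 1, the second highest animal for Ppy, was the highest for Ghrl. The difference between Wfs1KO and WT was 0.40 (standard error 0.64, exact permutation p = 0.571).

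Across the whole table few entries passed the test, and none of the 9 genes did. All 9 passed the filter on low values (at least 0.1 RPKM as the mean of the 12 animals). Between Wfs1KO and WT 0 of 9 had an FDR under 0.05 by limma, where 0.0138% of all 21701 entries tested did, and 0 of 9 had an unadjusted p under 0.05, where 5.64% did. Animals of the compared genotypes were separated without overlap for 0 of 9 members, against 2.74% of all entries in that comparison. Between Wfs1KO and Wfs1HZ the count of members was 0 at an FDR under 0.05, 0 at an unadjusted p under 0.05 and 0 without overlap, against 0%, 2.45% and 1.43% of all entries. For Wfs1HZ against WT it was 0 on each count as well, against 0%, 2.35% and 1.66%. The median difference of the members between Wfs1KO and WT was -0.04 on the log2 scale, with 4 higher and 5 lower, beside 0.07 for all entries. It was 0.11 beside 0.04 between Wfs1KO and Wfs1HZ, and -0.01 beside 0.04 between Wfs1HZ and WT. An exact permutation test of 4 against 4 animals cannot give a p below 0.0286. The trended variance of limma widened the standard errors of the most abundant members. For Gcg between Wfs1KO and WT it was 4.59, against 0.61 from the samples. Limma could thus call such members only at very large differences, and its counts say little about them.

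Ratios of hormones within an animal do not move with the scaling of its library, and they were compared for 7 ratios in 3 comparisons. The ratio of Pyy to Ppy had the smallest p. Pyy was 0.683, 0.831, 0.874 and 1.12 times Ppy in WT, 0.533, 0.208, 0.882 and 1.11 times in Wfs1HZ, and 0.320, 0.511, 0.737 and 0.451 times in Wfs1KO. The Wfs1KO animals were low, but replicate 3 of Wfs1KO lay above the lowest WT animal. On the log2 scale the difference between Wfs1KO and WT was -0.84 (means -1.05 ± 0.50 and -0.21 ± 0.29, SD, n = 4, standard error 0.29, exact two-sided permutation p = 0.0571, adjusted p = 0.760 over 21 tests). Between Wfs1KO and Wfs1HZ the ratio differed by -0.25 (exact permutation p = 0.657). All 21 adjusted p were 0.760 or higher. As the exact test cannot give a p below 0.0286, a single fully separated ratio could not have reached an adjusted p under 0.05. The adjusted p therefore say little about any single ratio.

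Ppy relative to Gcg was 0.117, 0.046, 0.029 and 0.035 in WT, 0.089, 0.072, 0.061 and 0.044 in Wfs1HZ, and 0.310, 0.070, 0.080 and 0.084 in Wfs1KO. Of the WT animals 3 lay below all Wfs1KO animals, and WT replicate 1 lay above 3 of them. The log2 difference between Wfs1KO and WT was 1.19 (standard error 0.67, exact permutation p = 0.114), and without Wfs1KO replicate 1 it was 0.69. Relative to the mean log2 level of 10 genes shared by endocrine cells, such as the granin genes Chga and Chgb and the transcription factor genes Neurod1 and Isl1, Ppy was 1.08 higher in Wfs1KO than in WT (standard error 0.51, exact permutation p = 0.114), Sst 0.29 higher (0.32, p = 0.457) and Gcg differed by -0.10 (0.55, p = 0.886). The ratio of Sst to Gcg differed by 0.40 between Wfs1KO and WT (standard error 0.55, exact permutation p = 0.514), 0.11 between Wfs1KO and Wfs1HZ and 0.28 between Wfs1HZ and WT.

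**Figure D3:**
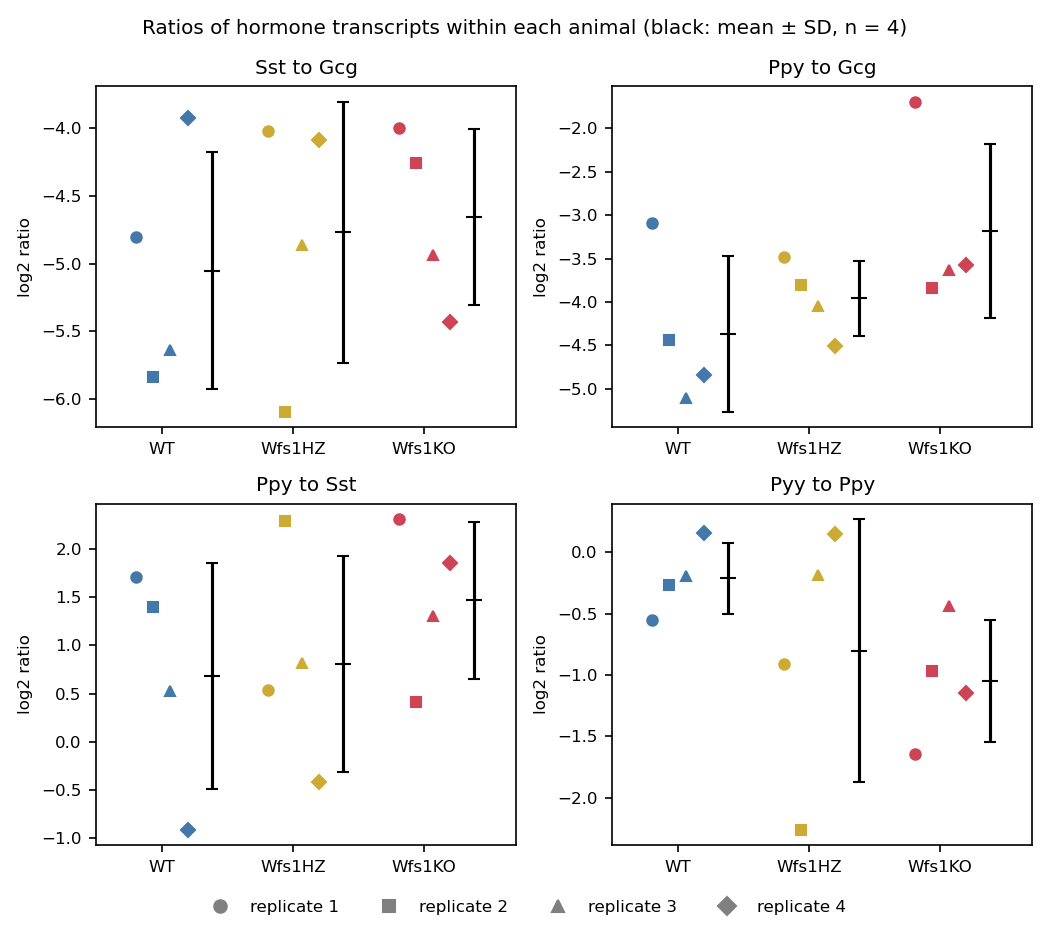
Log2 ratios of hormone RPKM within each animal for Sst to Gcg, Ppy to Gcg, Ppy to Sst and Pyy to Ppy, by genotype, with the marker shape giving the replicate number and the black bar the mean ± SD (n = 4). Genotypes overlap in every panel, and Wfs1KO replicate 1 stands apart in Ppy to Gcg at -1.69.

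The Gcg and Ttr values moved together across animals more closely than any other pair of the 9 genes. The SD over the 12 animals was 0.71 for log2 Gcg and 0.84 for log2 Ttr, whereas that of their difference was 0.37, the smallest of 36 pairs. The ratio of Gcg to Ttr thus ranged only 2.28-fold while each gene ranged 4.34-fold and 5.55-fold. The differences of Gcg from Irx2 (SD 0.53) and from Irx1 (0.59) were wider. For Sst and Hhex the SD of the difference was 1.25, above that of either gene alone and the largest of the 36 pairs. These values are description over animals that share the scaling of their libraries.

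**Figure D4:**
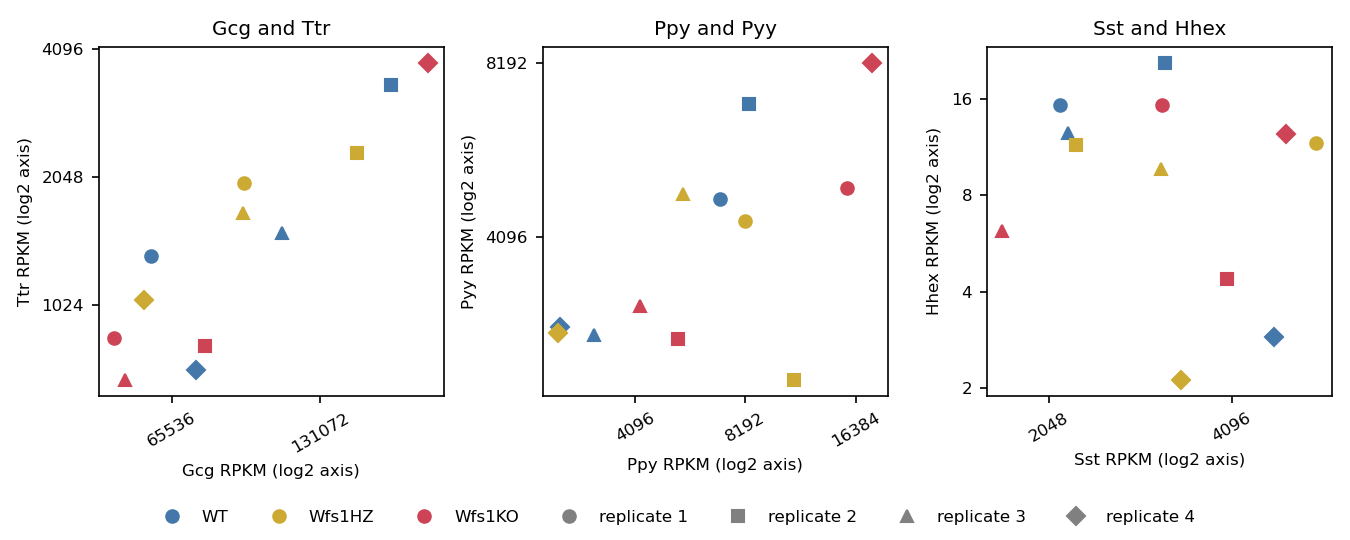
RPKM of Gcg and Ttr, Ppy and Pyy, and Sst and Hhex in the 12 animals, on log2 axes, with the genotype as colour and the replicate number as marker shape. Gcg and Ttr lie near a line with an SD of 0.37 in their log2 difference, whereas Sst and Hhex are scattered with an SD of 1.25.

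Among the 6 pairs of Gcg, Sst, Ppy and Pyy the correlation was strongest for Ppy and Pyy (Pearson's r = 0.634, permutation p = 0.0285, adjusted p = 0.171; Spearman's rho = 0.552, permutation p = 0.0663, n = 12). It was 0.673 with the genotype means removed and 0.405 without Wfs1KO replicates 1 and 4, the animals farthest from the median of Ppy, and therefore rests on these 2 animals in part. For Gcg r was 0.250 with Sst, 0.442 with Ppy and 0.399 with Pyy (permutation p = 0.428, 0.150 and 0.196, adjusted p = 0.514, 0.392 and 0.392). Without WT replicate 2 and Wfs1KO replicate 4 these were 0.027, 0.115 and -0.414. Sst had an r of 0.156 with Ppy and 0.312 with Pyy (permutation p = 0.623 and 0.321). Spearman's rho was between 0.119 and 0.413 for these 5 pairs, with adjusted permutation p of 0.554 or higher.

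The entries most like a hormone gene were found by the root mean square difference of log2 values over the 12 animals, each gene centred on its own mean, among 13356 other entries with a mean of at least 1 RPKM. For Gcg these were Arhgap6 (0.24), Nynrin (0.25), Pappa2 (0.26), Sorcs2 (0.27) and Gpx3 (0.27), and Ttr came at place 58 with 0.36. The median over all entries compared was 0.73. Gpx3 encodes a secreted glutathione peroxidase and Pappa2 a protease of insulin-like growth factor binding proteins. For Sst, whose own root mean square was 0.52, the nearest were H2afy2 (0.33), Zfp458 (0.34), Txnl4b (0.34), Phax (0.35) and 1700088E04Rik (0.35), and the nearest member was Irx1 at place 4495. Those of Ppy were 2410006H16Rik (0.36), Ndufaf2 (0.39), Snhg12 (0.41), Rps28 (0.42) and Rpl23a (0.43). The last pair encode ribosomal proteins and Ndufaf2 an assembly factor of respiratory complex I, and Ghrl was the member nearest to Ppy, at place 536 with 0.62.

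Other genes reported in alpha cells were present in every library, and 4 of them are described. The vitamin D binding protein gene Gc had a mean of 132 RPKM, the cationic amino acid transporter gene Slc7a2 46.6, the glutamine transporter gene Slc38a5 4.83, and the transcription factor gene Pou3f4 1.20 RPKM. The SD of the log2 difference from Gcg over the 12 animals was 0.40 for Slc7a2, 0.71 for Slc38a5, 0.75 for Gc and 0.96 for Pou3f4. Slc7a2 thus stayed closest to Gcg of these 4. Slc38a5 was at 3.62, 6.38, 4.62 and 4.38 RPKM in WT, at 4.58, 2.7, 3.59 and 3.65 in Wfs1HZ, and at 5.51, 5.17, 5.28 and 8.51 in Wfs1KO, so that the animals of Wfs1KO and Wfs1HZ did not overlap. The log2 difference between Wfs1KO and Wfs1HZ was 0.73 (standard error 0.31, unadjusted p = 0.0416, adjusted p = 1 by limma), which fails the correction over all entries. Of all entries tested, 1.43% did not overlap between these genotypes. Gc, Slc7a2 and Pou3f4 had an unadjusted p above 0.05 by limma in each of the 3 comparisons.

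Genes reported in delta cells were measured for 4 of a list of 5. Rbp4, the plasma retinol carrier, had a mean of 266 RPKM, the ghrelin receptor gene Ghsr 4.79, the leptin receptor gene Lepr 1.23 and the urocortin receptor gene Crhr2 0.398. In 0 of these 4 was an unadjusted p under 0.05 by limma in any of the 3 comparisons, and 0 had an FDR under 0.05. Over the 12 animals the log2 difference from Sst had an SD of 0.61 for Rbp4 and 1.00 for Ghsr, whereas their difference from Gcg had an SD of 0.45 and 0.42. For Lepr the SD was 1.16 from Sst and 0.79 from Gcg, and for Crhr2 it was 1.26 and 0.76. In these libraries all 4 genes thus stayed closer to Gcg than to Sst, as did the member Hhex (SD 0.94 against 1.25).

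The enzymes that process the hormone precursors were measured for 6 of 6 genes. Carboxypeptidase E (Cpe) had a mean of 888 RPKM, prohormone convertase 2 (Pcsk2), which cuts proglucagon to glucagon, 220.3, the amidating enzyme gene Pam 157 and prohormone convertase 1 (Pcsk1) 17.7. The dipeptidyl peptidase gene Dpp4 was at 2.46 RPKM and the ghrelin acyltransferase gene Mboat4 at 0.301. Pcsk2 was the one with an unadjusted p under 0.05, lower in Wfs1HZ than in WT at 176 against 267 RPKM without overlap (log2 difference -0.64, unadjusted p = 0.0337, adjusted p = 1 by limma). Of all entries tested, 1.66% did not overlap between Wfs1HZ and WT. Pcsk2 was not alone in being lower: so were 5 of these 6 genes in Wfs1HZ against WT. The genes shared by endocrine cells were lower in 10 of 10, with a median log2 difference of -0.31 beside 0.04 for all entries. Between Wfs1KO and WT all 6 had lower means in Wfs1KO, by -0.24 to -1.33 on the log2 scale, with an adjusted p of 0.879 or higher by limma. Of all entries 57.4% were higher in Wfs1KO in this comparison.

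Receptors of these hormones were measured for 12 of 13 genes and were low, except for Glp1r (mean 54.6 RPKM), the receptor of the proglucagon product GLP-1, and the somatostatin receptor gene Sstr3 (18.1 RPKM). The glucagon receptor gene Gcgr was at 1.99 RPKM, and the somatostatin receptor genes Sstr1, Sstr2, Sstr4 and Sstr5 at 1.09, 2.33, 0.252 and 0.105 RPKM. The receptor gene of the gut hormone GIP, Gipr, was the one with an unadjusted p under 0.05. It was at 4.38, 1.43, 1.34 and 2.61 RPKM in WT and at 0.64, 1.27, 0.41 and 1.18 in Wfs1KO, with Wfs1HZ between 1.27 and 2.88. The animals of WT and Wfs1KO did not overlap (log2 difference -1.33, standard error 0.51, unadjusted p = 0.0269, adjusted p = 0.840 by limma). Of all entries tested, 2.74% did not overlap between Wfs1KO and WT. No receptor gene had an unadjusted p under 0.05 in the other two comparisons.

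Markers of the other cell types were compared as lists. Acinar genes had a median log2 difference of -0.29 between Wfs1KO and WT (1 of 10 higher), ductal genes -0.06 (3 of 8), endothelial genes 0.53 (7 of 7), stromal genes 1.20 (7 of 8), immune genes 0.14 (5 of 6 measured), beta cell genes -0.75 (2 of 9) and genes shared by endocrine cells -0.18 (3 of 10), beside 0.07 over all entries. None of these genes had an FDR under 0.05 by limma, and 2 beta cell, 1 ductal, 1 endothelial and 2 stromal genes had an unadjusted p under 0.05, beside 5.64% of all entries. Of the 10 beta cell genes 9 entered the tests, and the other was listed at 0 in 10 of 12 animals, all WT animals among them. The part of such cells in the levels of the 9 genes was not tested.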

How the data were processed

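Islet RNA of 12 mice (4 in each of 3 genotypes; genotype and replicate number from the sample labels) was reverse transcribed from 10 ng of total RNA with the Ovation system and sequenced on a SOLiD 5500xl instrument (75 bp forward and 35 bp reverse). LifeScope was used by the authors to map reads to mm10, and the authors deposited linear RPKM values, 1 column per animal. The tool that counted reads and the annotation are not given in the sources used here. The study tested counts with edgeR, which RPKM do not allow.

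The RPKM were used without further scaling. Each pair of genotypes was fitted on log2(RPKM + 0.1) with limma 3.58.1 in R 4.3.3, using a trended variance and adjusting p-values by Benjamini-Hochberg over the 21701 entries with a mean of at least 0.1 RPKM. Fold changes on this scale understate changes of low genes. The trend gives the few entries of highest level very wide standard errors (4.59 for Gcg between Wfs1KO and WT), so standard errors of members are given from the samples, beside an exact two-sided permutation test. Nothing in the labels says whether animals shared a litter. The table repeats 58 names and marks 969 entries as copies; none is a member.

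Depth was estimated from RNA genes under 200 nt with RefSeq lengths. It was chosen so that their values came close to whole reads, and 96.3% to 100% of the values used were then within 0.1. As the depth was fitted to this share, the share does not check it. Read numbers of members also assume the length of the longest coding transcript in GENCODE M21. Read numbers cover counting error only. Members and gene lists (13) were chosen with earlier results of these data known. Named genes are the 9 members, genes of the alpha, delta, Iroquois, maturation and receptor lists with an unadjusted p under 0.05 or among the 4 highest of a list, and the 5 entries most like Gcg, Sst and Ppy; others were named after their values were seen. Some genes of the alpha cell list are not reported here. Promoter bases are from RefSeq (GRCm38.p6). Alternatives were other pseudocounts, filters, scalings and variance models, weighting of samples, a block for the replicate number, leaving out each animal, and, chosen after seeing the data, the acinar level as a covariate. Permutation tests and figures were made in Python 3.11.15 (scipy 1.17.1, numpy 2.4.6, matplotlib 3.10.9, pandas 2.3.3). The procedure was tested on simulated data.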

Additional observations from a re-analysis of the deposited data

Results flagged for a closer look

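With 4 animals per genotype, 48 groups of values (members and ratios in each genotype) were examined for a single animal far from the other 3, and chance alone flags about 1 group in 20 if values are normally distributed. Members were examined as linear RPKM, which need not be so distributed, and ratios on the log2 scale. Gcg in Wfs1KO replicate 4 was 217165 RPKM where the other Wfs1KO animals had 50073 to 76653 RPKM, a gap of 0.841 of the whole range of the genotype. Ttr in the same animal was 3798 RPKM against 684 to 859 RPKM, a gap of 0.944 of the range. The log2 ratio of Ppy to Gcg in Wfs1KO replicate 1 was -1.69 against -3.84 to -3.58 in the other Wfs1KO animals, a gap of 0.877 of the range.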

How the results depend on the processing

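None of the 9 genes was called under any alternative: over 567 values (9 genes, 3 comparisons, 21 alternatives each) the lowest adjusted p was 0.568 by limma, and 57 values had the opposite sign to the one reported. Ppy had a positive difference in all 3 comparisons under each alternative. Of all entries, 3 passed an FDR of 0.05 in Wfs1KO against WT, a count that became 0 with a pseudocount of 1 and with the acinar level as a covariate, 1 with all 12 samples in a single fit, and 0 to 1 with an animal left out. The 0 between Wfs1KO and Wfs1HZ became 1 relative to the pan-endocrine genes, 1 with a robust variance and 5 with sample weights, and the 0 between Wfs1HZ and WT became 1 with no filter and 2 with no trend in the variance. The cause was not tested.

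Under the other settings, signs turned for reported differences of at most 0.33 in size. Between Wfs1KO and WT, Gcg was 0.25 and Sst -0.018 with quantile normalization, Irx1 0.10 relative to the pan-endocrine genes and Pyy -0.11 with sample weights. Between Wfs1KO and Wfs1HZ, Irx1 was 0.0011 with a pseudocount of 1 and 0.082 with quantile normalization, Irx2 -0.021 and Ghrl -0.011 relative to the pan-endocrine genes, Ghrl -0.026 with quantile normalization, and Hhex -0.087 and Pyy -0.14 with sample weights. Between Wfs1HZ and WT, Gcg was 0.32 with quantile normalization and 0.22 relative to the pan-endocrine genes, Irx1 0.040 with median-of-ratios scaling, 0.27 relative to the pan-endocrine genes and 0.014 with sample weights, and Pyy 0.042 relative to the pan-endocrine genes and 0.019 with sample weights. The pan-endocrine centring moved the median of all entries from 0.07 to 0.22 between Wfs1KO and WT and from 0.04 to 0.31 between Wfs1HZ and WT.

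When animals were left out singly, the log2 differences that changed sign ranged between Wfs1KO and WT from -0.72 to 0.059 for Gcg, -0.93 to 0.035 for Ttr, -0.41 to 0.35 for Irx1, -0.47 to 0.015 for Irx2, -0.063 to 0.45 for Sst, -0.89 to 0.043 for Hhex, -0.21 to 0.36 for Pyy, -0.046 to 0.70 for Ghrl and -0.45 to 0.19 for Gcg to pan-endocrine genes. Between Wfs1KO and Wfs1HZ they ranged from -0.66 to 0.055 for Gcg, -0.41 to 0.34 for Irx1, -0.27 to 0.36 for Irx2, -0.29 to 0.22 for Sst, -0.36 to 0.53 for Hhex, -0.26 to 0.42 for Ghrl, -0.33 to 0.37 for Sst to Gcg and -0.74 to 0.067 for Pyy to Ppy. Between Wfs1HZ and WT they ranged from -0.30 to 0.25 for Gcg, -0.16 to 0.58 for Ttr, -0.36 to 0.39 for Irx1, -0.62 to 0.015 for Irx2, -0.012 to 0.47 for Sst, -1.11 to 0.069 for Hhex, -0.41 to 0.030 for Pyy, -0.17 to 0.51 for Ghrl, -0.41 to 0.53 for Ppy to Sst and -0.086 to 0.47 for Gcg to pan-endocrine genes. For Wfs1KO against WT the ends mostly came from leaving out WT replicate 2 or 4 or Wfs1KO replicate 4.

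With the replicate number as a block, 0 entries had an FDR under 0.05 in each comparison, and those with an unadjusted p under 0.05 went from 1225 to 1091, from 532 to 395 and from 511 to 854. Same-numbered animals deviated with correlations of -0.17 to 0.23. Wfs1HZ replicates 1, 2 and 4 each correlated best with the WT animal of their own number (0.072, 0.23 and 0.21), but replicate 3 did not. For Wfs1KO against WT this held for replicate 1 only, and for Wfs1KO against Wfs1HZ for no replicate. Whether the numbers pair the animals was not tested. The block changed the call of no member. For the ratios the blocked exact test cannot give a p below 0.125, so it could call none and decides nothing. Irx1 and Hhex rest on as few as an estimated 11.3 and 19.1 reads in a library, and 4 animals per genotype limit what can be shown for each gene.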
